A study of Mus musculus with 20 samples.

Results

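The interferon-induced GTPases Gbp2, Gbp3, Gbp4, Gbp5, Gbp7, Irgm1, Irgm2, Igtp, Iigp1, and Gm4951 were measured in left ventricular heart tissue of aged male mice. They are the rows of the count table whose Ensembl identifier carries one of these symbols, 10 of 15956 genes listed, and all 10 had enough counts to be tested. RNA was sequenced from 20 mice, 5 in each of 4 diet groups. Normal protein (NP) mice ate a control diet in which casein made up 20%, low protein (LP) mice a diet with 5% casein, high-fat (HF) mice a diet of 60% fat with 20% casein, and HF+LP mice the 60% fat diet with 5% casein. Diets began at 12 months of age and lasted 4 months by the study's methods, and the labels state 18 months as the age of every mouse. The mice were males by the study's methods, their strain is not given in the sources used here, and the labels name no genetic modification or agent other than diet. Body weights in the labels ranged from 29.9 to 36.9 g in LP and from 56.1 to 60.9 g in HF.

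The genes sit in a few clusters of the mouse genome (GENCODE M21 on GRCm38), and all 10 are protein-coding. Gbp5 (chr3:142493978-142522344), Gbp7 (chr3:142530342-142550149), Gbp3 (chr3:142560026-142573209), and Gbp2 (chr3:142620602-142638008) lie in this order on the plus strand of chromosome 3. Gbp4 (chr5:105115767-105139586, minus strand) overlaps the annotated spans of Gbp8 and Gbp9 on its own strand. Irgm1 lies at chr11:48861968-48871683 on the minus strand, and Igtp (chr11:58199556-58207591) and Irgm2 (chr11:58199618-58222782) overlap on the plus strand. Iigp1 (chr18:60376027-60392634) and Gm4951 (chr18:60212080-60247820) both lie on the plus strand of chromosome 18, and Gm4951 is an Irg gene known by its predicted-gene name. The members are related copies, and how reads shared between copies or overlapping genes were assigned is not given in the sources used here, so the split of counts within the pairs Igtp and Irgm2, and Gbp4 with Gbp8 and Gbp9, is uncertain.

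Guanylate-binding proteins (Gbp) and immunity-related GTPases (Irg) are made in response to interferons, above all to interferon gamma, and gather on membranes that enclose bacteria and parasites inside a cell. The Irg family has regulators, Irgm1, Irgm2, and Igtp, which sit on the cell's own membranes and hold the effector GTPases inactive, and effectors such as Iigp1, which assemble on pathogen vacuoles. Proteins of the autophagy machinery that attach LC3-like proteins to membranes are needed to direct both families to their targets, and several Gbp proteins promote inflammasome activation. In the heart, as in other tissues, both resident cells and immune cells can make them when interferon is present.

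Promoter windows from RefSeq (GRCm38.p6), reaching from 250 bases before to 50 bases from the gene start on, were on hand for 7 of the 10 members. The other 3 had no window. Interferon-activated transcription factors are known to bind a repeated element, the interferon-stimulated response element, and a palindrome, the gamma-activated site. The letters GAAANNGAAA, the core of the first, were searched on both strands and found in a window of 7 of 7 members (7 of 8 windows, as 1 member had 2), against 1131 of 32851 windows of all genes (3.44%). The letters TTCNNNGAA, which read the same on both strands and stand for the second, were found for Gbp5, Gbp7, Igtp, and Irgm2, against 2726 of 32851 windows (8.30%). A stretch of 120 bases around the first element is shown for the members that reach an unadjusted p under 0.05 in a comparison below and have a window, and for Irgm2 because of its likeness to Igtp. The stretches are chr3:142620549-142620668 (plus strand) for Gbp2, chr3:142559947-142560066 (plus strand) for Gbp3, chr3:142496714-142496833 (plus strand) for Gbp5, chr11:48871383-48871502 (minus strand) for Irgm1, chr11:58199467-58199586 (plus strand) for Igtp, and chr11:58214858-58214977 (plus strand) for Irgm2. They are written 5′ to 3′ on the gene's strand, and capitals mark each match to either element (TTTCNNTTTC is the first element read on the other strand):
Gbp2: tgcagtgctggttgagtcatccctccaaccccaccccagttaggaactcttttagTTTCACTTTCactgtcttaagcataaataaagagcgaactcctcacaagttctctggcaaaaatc
Gbp3: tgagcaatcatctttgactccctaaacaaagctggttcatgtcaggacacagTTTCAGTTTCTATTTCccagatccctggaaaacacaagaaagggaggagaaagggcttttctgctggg
Gbp5: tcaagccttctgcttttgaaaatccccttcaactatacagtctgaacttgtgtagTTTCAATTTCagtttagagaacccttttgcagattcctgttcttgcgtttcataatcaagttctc
Irgm1: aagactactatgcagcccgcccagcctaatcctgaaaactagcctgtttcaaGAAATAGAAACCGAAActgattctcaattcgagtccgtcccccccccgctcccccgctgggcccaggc
Igtp: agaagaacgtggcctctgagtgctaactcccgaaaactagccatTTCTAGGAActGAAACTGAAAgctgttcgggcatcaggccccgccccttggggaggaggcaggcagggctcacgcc
Irgm2: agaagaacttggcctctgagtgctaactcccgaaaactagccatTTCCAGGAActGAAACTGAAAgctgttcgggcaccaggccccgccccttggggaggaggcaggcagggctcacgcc
In Gbp2, Gbp3, and Gbp5 the repeated element is on the strand opposite to the gene, and in Irgm1, Igtp, and Irgm2 on the same strand. Gbp3 and Irgm1 hold a pair of overlapping matches, which gives their longer run of capitals. It begins 59 bases upstream of the RefSeq start in Gbp2, 45 in Gbp3, 165 in Gbp5, 30 in Irgm1, 34 in Igtp, and 64 in Irgm2. The stretches of Igtp and Irgm2 are identical at 117 of 120 bases (97.5%). Both gamma-activated site matches of Gbp5 fall outside its stretch. A match is a description of the letters, and binding was not measured.

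Libraries were made with QuantSeq, which reads the 3′ end of polyadenylated transcripts, and the values are raw read counts per gene. Total counts ranged from 12559607 to 23331907 per mouse, and a member had between 15 and 1615 counts in a library. Gm4951 had the fewest counts, 15 to 116 in a library, and Iigp1 the most, 340 to 1615. Cardiomyocyte markers (7 of 7 listed genes) summed to 29415 to 46390 CPM (a gene's count scaled to a common library total) and were high in every library, whereas atrial markers ranged from 57.2 to 14469 CPM in tissue labelled left ventricle. LP mouse 13 had the lowest median correlation with its group (0.908). LP mouse 20 had 177 CPM of T and NK cell markers, against 1.49 to 5.07 CPM in the other 19 mice. The share of counts from mitochondrially encoded genes was 38.1 to 39.8% in HF (median 38.4%), 41.3 to 47.1% in NP (41.8%), 38.5 to 47.2% in HF+LP (43.8%), and 35.4 to 44.5% in LP (41.5%), and its part in the results was not tested. With 5 mice a group, differences refer to the spread between mice, and in bulk tissue fewer cells of a type cannot be told apart from less RNA per cell.

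Group means of all 10 members were highest in HF. Counts were scaled to the same effective library size (normalized counts) and tested across 13991 genes with edgeR's quasi-likelihood model. Calls required an adjusted p (Benjamini-Hochberg) below 0.01 and a mean normalized count over 50, which 9 of the 10 members exceed and Gm4951 does not.

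**Figure D1:**
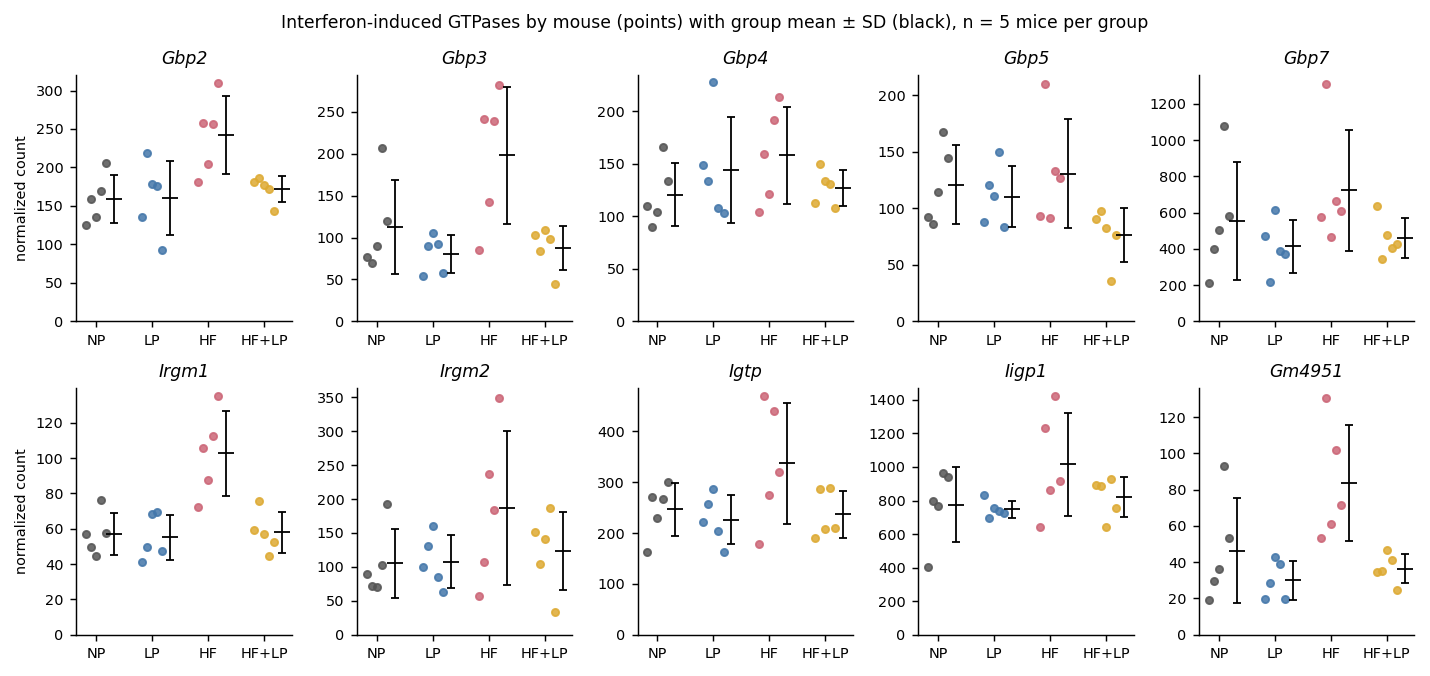
Normalized counts (vertical axis, from 0) of the 10 genes in each of 20 mice by diet group, with the group mean and SD in black (n = 5). HF has the highest group mean in each panel, and HF values overlap those of NP in each panel.

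In HF compared to NP, the log2 fold change was positive for all 10 members, from 0.11 (Gbp5) to 0.86 (Gm4951), with a median of 0.53 against −0.0011 over all genes tested. Irgm1, Gbp2, Gbp3, and Gm4951 were higher in HF at an unadjusted p under 0.05, 4 of 10, where 5.17% of all genes were higher and 7.91% were lower by the same rule. None of the 10 was lower by this rule and 0 were called with edgeR, where 0.264% of all genes were called. The members were chosen with earlier results of these data known, so their share beside that of all genes is a description only. DESeq2, which called 158 of 15956 genes, called 1 member, Irgm1. None of the members separated HF from NP without overlap, as 2.07% of all genes did with HF higher.

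Irgm1, the Irg regulator that controls the effectors and supports autophagy of bacteria, had the smallest p of the members. Its normalized count was 72.5, 105, 87.3, 113, and 135 in HF mice 1 to 5. In NP it was 49.5 in mouse 3, 57.3 in mouse 4, 76.1 in mouse 5, 44.7 in mouse 6, and 57.7 in mouse 8. HF mouse 1 lay just under NP mouse 5, and the other 4 HF mice lay above all NP mice. Irgm1 averaged 103 ± 24.0 over the HF mice against 57.1 ± 11.9 over the NP mice (SD, n = 5). The log2 fold change was 0.85 (standard error 0.20, 95% confidence interval 0.44 to 1.27, edgeR adjusted p = 0.0364), and its p ranked 131 among all genes tested. The DESeq2 log2 fold change was 0.89 with an adjusted p of 0.00343.

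Gbp2, a Gbp that coats pathogen vacuoles, had normalized counts of 181, 258, 204, 256, and 309.9 in HF mice 1 to 5. The NP values were 158 in mouse 3, 125 in mouse 4, 169 in mouse 5, 136 in mouse 6, and 206 in mouse 8. HF mice 2, 4, and 5 lay above all NP mice. The difference was 0.61 on the log2 scale (standard error 0.19, edgeR adjusted p = 0.124). Gbp3, of the same cluster, had 85.2, 241, 142, 239, and 282 in HF mice 1 to 5. In NP it had 69.3, 76.4, 207, 90.3, and 119.9 in mice 3, 4, 5, 6, and 8. HF mice 1 and 3 lay within the NP range and NP mice 5, 6, and 8 within the HF range. The difference was 0.82 with a standard error of 0.33 (edgeR adjusted p = 0.261).

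Gm4951 had the largest log2 fold change of the members in HF compared to NP, 0.86 (standard error 0.35, edgeR adjusted p = 0.266). Its normalized counts were 53.4, 130.5, 61.1, 102, and 71.3 in HF mice 1 to 5, and 29.7, 19.1, 93.1, 36.1, and 53.2 in NP mice 3, 4, 5, 6, and 8. Apart from NP mouse 5, NP values ended at 53.2, just under the lowest HF value. Among the members that missed an unadjusted p of 0.05, Igtp, an Irg regulator, differed by 0.45 (95% confidence interval −0.016 to 0.92), Irgm2, another regulator, by 0.85 (−0.058 to 1.75), and the effector Iigp1 by 0.39 (−0.035 to 0.82). Gbp4 differed by 0.40 (edgeR adjusted p = 0.497) and Gbp7 by 0.38 (adjusted p = 0.723). All of these but Igtp moved by over 1.5 times without single mice. Gbp7 went to 0.063 without HF mouse 2, 0.18 without NP mouse 4, and 0.77 without NP mouse 5, Iigp1 to 0.23 without NP mouse 4 and 0.24 without HF mouse 4, and without HF mouse 5 Irgm2 went to 0.49 and Gbp4 to 0.26. Gbp5, which promotes assembly of the NLRP3 inflammasome, had the smallest difference, 0.11 (95% confidence interval −0.44 to 0.66, edgeR adjusted p = 0.921), and with a mouse left out it ran from −0.12, without HF mouse 2, to 0.25, without NP mouse 5. The number of members higher at an unadjusted p under 0.05 was 2 without NP mouse 3 or 4, 7 without NP mouse 5 or 8, and 8 without HF mouse 1.

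Markers of other cells moved in the same comparison. Macrophage markers (8 of 8 listed genes measured) summed to 404 to 532 CPM in HF and 298 to 404 CPM in NP, and 4 of the 8 were higher at an unadjusted p under 0.05. Cardiomyocyte markers summed to 31562 to 38521 CPM in HF and 39157 to 46390 CPM in NP, with 3 of 7 lower. These were the myosin gene Myh6 (−0.70, edgeR adjusted p = 0.0124), Ryr2 (−0.65, adjusted p = 0.104), and Tnnt2 (−0.28, adjusted p = 0.354). The p of Myh6 was smaller than that of any member. Endothelial markers summed to 497 to 595 CPM in HF and 449.7 to 514 CPM in NP, with 0 of 6 passing. Fibroblast markers summed to 986 to 1253 CPM in HF and 881 to 1082 CPM in NP, with 1 of 5 higher, the collagen gene Col3a1 (0.87, edgeR adjusted p = 0.0217), whose p was smaller than that of any member. T and NK cell markers summed to 1.498 to 3.784 CPM in HF and 1.491 to 2.635 CPM in NP, with 1 of 3 tested genes higher, the granzyme gene Gzma (1.61, edgeR adjusted p = 0.361). Erythroid markers summed to 5268 to 11554 CPM in HF and 3143 to 9095 CPM in NP, with 1 of 4 higher, Alas2 of heme synthesis (0.78, edgeR adjusted p = 0.363). NP mouse 5, in which members were high, had 314 CPM of macrophage markers, the second lowest of its group, and HF mouse 1, in which members were low, had the lowest of its group, 404 CPM. The part of these cells in the difference was not tested.

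In HF+LP compared to HF, the log2 fold change was negative for all 10 members, from −1.19 (Gm4951) to −0.31 (Iigp1), with a median of −0.63 against 0.017 over all genes. Irgm1, Gbp3, Gm4951, Gbp5, Gbp2, and Igtp were lower in HF+LP at an unadjusted p under 0.05, 6 of 10, where 2.43% of all genes were lower and 2.41% higher. None were higher, and 0 were called by edgeR or DESeq2. Of all genes, edgeR called 0% and DESeq2 16 of 15956. The smallest DESeq2 adjusted p of a member was 0.0213. HF samples serve in both comparisons, so a high HF value raises the first difference and lowers the second. Here too, the members were chosen with earlier results known.

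Irgm1 had normalized counts of 59.4, 75.9, 57.1, 44.8, and 52.6 in HF+LP mice 1 to 5. HF+LP mouse 2 overlapped the lowest HF mouse, and the others lay below all HF mice. Its log2 fold change was −0.83 (standard error 0.20, 95% confidence interval −1.24 to −0.41, edgeR adjusted p = 0.217), ranking 28 among all genes tested. With DESeq2 the log2 fold change of Irgm1 was −0.85 (DESeq2 unadjusted p = 4.85e-05). Gm4951 had 34.4, 35.3, 46.6, 41.4, and 24.7 in HF+LP mice 1 to 5, all under the lowest HF value of 53.4, the only member without overlap, while 0.636% of all genes were lower without overlap. It differed by −1.19 (standard error 0.35, edgeR adjusted p = 0.426). Gbp3 had 103, 84.4, 109, 98.6, and 44.3 in HF+LP mice 1 to 5, of which 2 lay below all HF mice, and differed by −1.17 (standard error 0.33, edgeR adjusted p = 0.375).

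Gbp5 had 90.6, 97.2, 82.7, 35.8, and 76.3 in HF+LP mice 1 to 5, and 92.8, 209.5, 91.7, 133, and 127 in HF mice 1 to 5. Only HF+LP mouse 2 lay above the lowest HF value, and mouse 4 was far below the rest of its group. The difference was −0.76 (standard error 0.27, edgeR adjusted p = 0.617). Gbp2 had 181, 186, 177, 172, and 143 in HF+LP mice 1 to 5 and differed from HF by −0.49 (standard error 0.19, edgeR adjusted p = 0.748). Igtp had 191, 286, 207, 289, and 210.4 in HF+LP mice 1 to 5, and 179, 470.5, 276, 440.0, and 321 in HF mice 1 to 5. All HF+LP values of Igtp lay inside the HF range, and the difference was −0.51 (standard error 0.22, edgeR adjusted p = 0.933). Gbp7 (−0.65), Irgm2 (−0.61), Gbp4 (−0.32), and Iigp1 (−0.31) did not pass, with an edgeR adjusted p = 0.999 for each. Without HF mouse 2 Gbp7 went to −0.33, without HF mouse 4 Iigp1 went to −0.15, and without HF mouse 5 Irgm2 went to −0.26 and Gbp4 to −0.19, while Irgm2 went to −0.37 without HF+LP mouse 5. Macrophage markers summed to 302 to 413 CPM in HF+LP, with 1 of 8 lower than in HF at an unadjusted p under 0.05. Fibroblast markers summed to 849 to 1041 CPM in HF+LP, with 2 of 5 lower, the collagen genes Col3a1 (−0.55, edgeR adjusted p = 0.577) and Col1a1 (−0.49, adjusted p = 0.999). Endothelial markers summed to 434 to 655 CPM in HF+LP, with 1 of 6 lower, Pecam1 (−0.24, adjusted p = 0.912), and cardiomyocyte markers to 31195 to 44889 CPM, with 0 of 7 passing. The part of these cells in the difference was not tested.

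**Figure D2:**
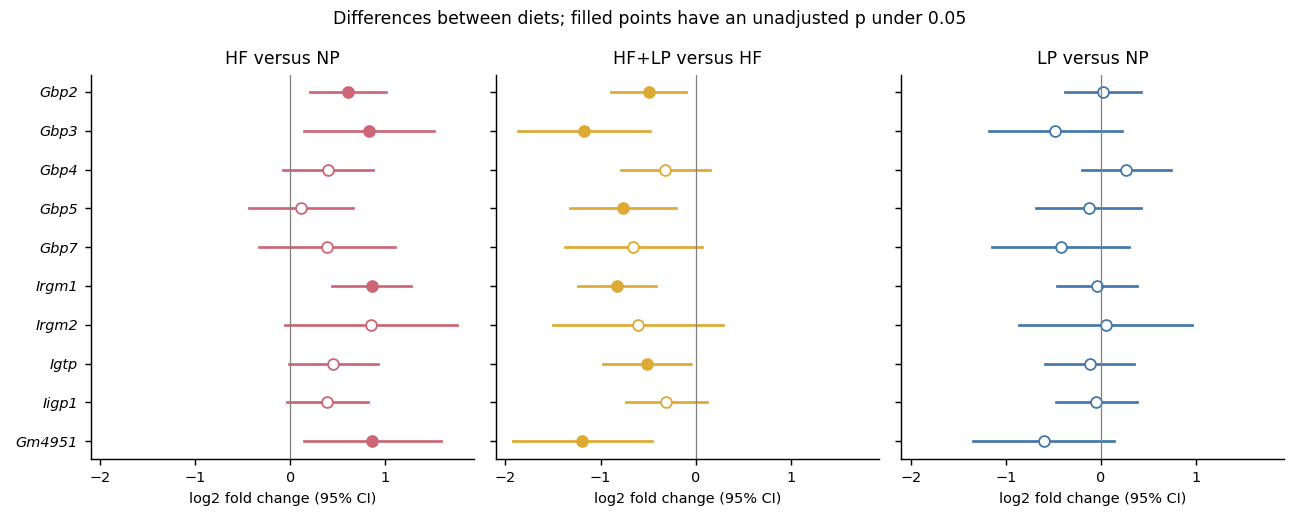
Log2 fold change (horizontal axis) of each gene with its 95% confidence interval from edgeR for HF versus NP, HF+LP versus HF, and LP versus NP. Points are filled at an unadjusted p under 0.05, which 4, 6, and 0 of the 10 genes reach.

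In LP compared to NP, which asks what low protein does without added fat, no member passed an unadjusted p of 0.05 in either direction with edgeR or DESeq2, where 5.02% of all genes were higher and 2.21% lower, and 0% were called with edgeR. By DESeq2, 762 of 15956 genes were higher, 376 lower, and 3 called. The median log2 fold change was −0.084, 3 members were above 0 and 7 below, and the range was −0.60 (Gm4951) to 0.27 (Gbp4). The 95% confidence interval of Irgm1 ran from −0.46 to 0.38 and that of Irgm2 from −0.86 to 0.96, so differences of nearly 2-fold in Irgm2 were not resolved.

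In HF+LP compared to LP, 0 members passed at an unadjusted p under 0.05 with edgeR or DESeq2 (6.26% of all genes higher, 9.66% lower), and 0 were called, where 0.1% of all genes were. By DESeq2, 974 of 15956 genes were higher, 1483 lower, and 81 called. The median was 0.11, from 0.026 without LP mouse 5 to 0.53 with the animal number as a replicate block. Of the LP mice, only mice 2 and 5 share a number with mice of other groups, so the block rests on them. The smallest p belonged to Gbp5 (−0.53, edgeR adjusted p = 0.340). In HF+LP compared to NP the median was −0.016, with 5 members on each side of 0. Gbp5 was the single member lower in HF+LP than in NP at an unadjusted p under 0.05 (log2 fold change −0.65, standard error 0.27, edgeR adjusted p = 0.459), where 4.87% of all genes were lower. None was higher, as 3.9% of all genes were, and none was called, as 0.0286% of all genes were. DESeq2 called 0 members and 30 of 15956 genes. Irgm1 differed between HF+LP and NP by 0.028 (95% confidence interval −0.39 to 0.45). Gbp5 in HF+LP thus had a mean of 76.5 ± 24.1, under the 121 ± 34.9 of NP, the 110.4 ± 27.1 of LP, and the 131 ± 47.9 of HF (SD, n = 5).

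The interaction compares the effect of low protein under high fat with its effect under normal fat. It was negative for all 10 members, from −0.79 (Irgm1) to −0.23 (Gbp7), with a median of −0.59 against −0.0060 over all genes, and −0.31 without LP mice 13 and 20, a setting chosen after seeing the data. Irgm1 alone was lower at an unadjusted p under 0.05 (standard error 0.28, edgeR adjusted p = 0.658), where 4.31% of all genes were lower and 2.86% higher. None of the members was called by edgeR or DESeq2, and 0% of all genes were called by either.

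Below HF, the order of the group means differed from gene to gene, with NP second for 5 members, HF+LP for 4, and LP for 1. LP had the lowest mean for 6 members, NP for 3, and HF+LP for Gbp5. The neighbors below HF in this order did not differ at an unadjusted p under 0.05 for any member. Gbp5 passed between NP, its second group, and HF+LP, its lowest. Irgm1 had 103 in HF against 57.9, 57.1, and 55.1 in HF+LP, NP, and LP. Iigp1 had 1015 ± 308 in HF, 821 ± 119.8 in HF+LP, 774 ± 224 in NP, and 749 ± 50.8 in LP (SD, n = 5).

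The members varied widely between mice of one diet. In HF the highest mouse had 6.09 times the lowest for Irgm2, 3.31 times for Gbp3, and 1.72 times for Gbp2. In NP the ratio was 5.07 for Gbp7 and 4.88 for Gm4951. For Gbp7 the NP standard deviation of log2 CPM exceeded that of 98.6% of the 10159 tested genes with a mean normalized count over 50. For Irgm2 in HF the standard deviation exceeded that of 98.5% of these genes. In HF+LP this share was 98.9% for Irgm2, 94.0% for Gbp5, and 92.6% for Gbp3, whereas Gbp2 was narrow there (16.6% of genes), and LP was narrow for Iigp1 (3.53% of genes).

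The same mice were high or low for most members. HF mouse 4 was among the highest 5 of the 20 mice for 10 of 10 members, HF mouse 2 for 9, and HF mouse 5 for 7. HF mouse 1 was the lowest of its group for 8 members and among the highest 5 mice for none. NP mouse 5 was among the highest 5 for 7 members, as many as HF mouse 5, and LP mouse 5 was among the lowest 5 for 10 of 10. The title of that library calls it sample 2 of animal 5, and it is the only library of an LP animal 5 used here. Summed over the members, HF mice 1 to 5 had 120.5, 248, 150.2, 221, and 196 CPM. NP mice 3, 4, 5, 6, and 8 had 119.1, 79.6, 194, 123, and 161 CPM. HF+LP mice had 110.4 to 144 CPM and LP mice 102 to 149.8 CPM, ranges that NP and HF exceed on the high side. Genes with more counts weigh more in this sum. Iigp1 and Gbp7, with mean normalized counts of 840 and 538, weigh most, and Gm4951 (49.1) least.

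**Figure D3:**
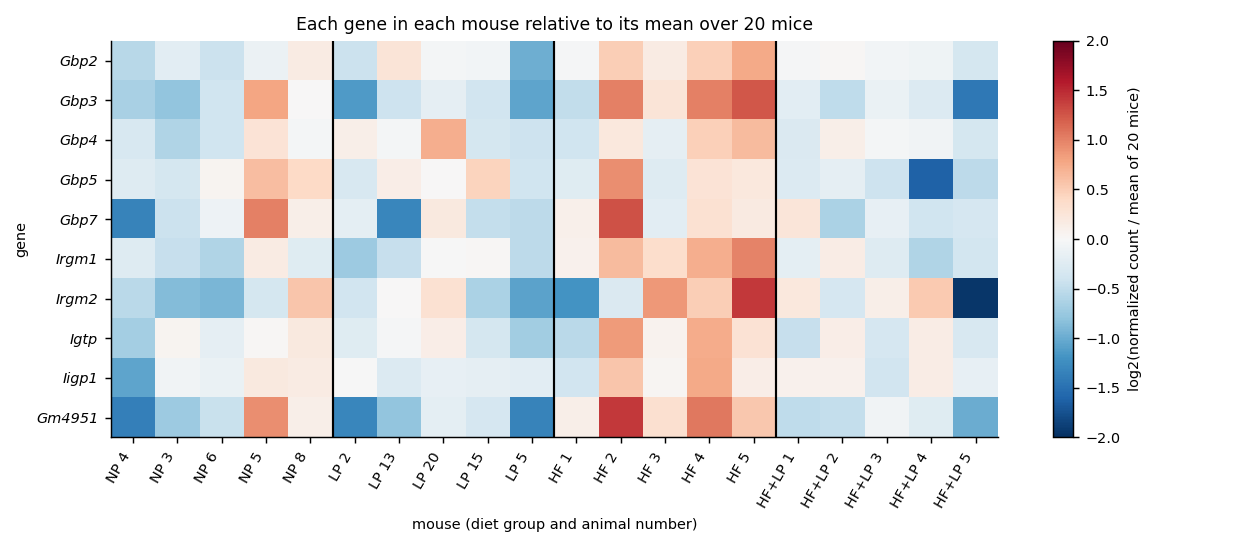
Log2 ratio of each gene's normalized count to its mean over 20 mice (color, from −2 to 2), with genes in rows and mice in columns, ordered by diet group. HF mice 2, 4, and 5 are above the mean for most genes, HF mouse 1 is below or near it, and NP mouse 5 is above it for all but Gbp2 and Irgm2.

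Over the 20 mice, Gbp3 followed the mean of the other members most closely (Pearson r = 0.935 on log2 CPM), then Gm4951 (0.899), Gbp2 (0.825), and Irgm1 (0.802). Gbp5 (0.506), Irgm2 (0.546), and Gbp7 (0.647) followed it least. These are descriptions over mice that share diet groups, with all genes of a mouse read from the same library. Among the genes outside the list with a mean normalized count over 50, the 5 most like the mean of the members were Isg15 (r = 0.962), a ubiquitin-like interferon product, B2m (0.948), the invariant partner of MHC class I chains, Ifit1 (0.948), an inhibitor of viral RNA, Oasl2 (0.921), of the oligoadenylate synthetase family, and Irf9 (0.920), the DNA-binding part of the type I interferon factor. When each mouse was taken as its deviation from its diet mean, so that the differences between groups were removed, r was 0.934 for Isg15, 0.930 for B2m, and 0.922 for Ifit1, and these were again the top 3.

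Other interferon-induced GTPases were examined in a list of 25 genes, of which 12 were listed in the counts and 11 tested. In HF compared to NP, 5 of 11 were higher at an unadjusted p under 0.05 and 0 lower (median log2 fold change 0.48), and in HF+LP compared to HF 6 of 11 were lower and 0 higher (median −0.75). Mx1, an antiviral dynamin-like GTPase, averaged 21.3 ± 11.5 normalized counts in HF against 6.99 ± 0.802 for NP mice (SD, n = 5), a difference of 1.61 (edgeR adjusted p = 0.0460). Ifi47, an Irg gene outside the list of members, had 234 ± 73.2 in HF, 118 ± 29.2 in NP, and 123 ± 30.0 in HF+LP, with differences of 0.99 and −0.93 (edgeR adjusted p = 0.0945 and adjusted p = 0.473). The Irg gene Gm5431 averaged 19.3 ± 8.92 in HF against 4.99 ± 1.99 for HF+LP mice (SD, n = 5), a difference of −1.91 (edgeR adjusted p = 0.235).

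Of 21 antiviral interferon-stimulated genes, such as Rtp4, Rsad2, and Zbp1, 21 were higher in HF than in NP and 21 lower in HF+LP than in HF at an unadjusted p under 0.05, with medians of 1.19 and −1.30, but the list was chosen with results of these mice known. Rtp4, which encodes a receptor transporter protein, differed by 1.25 and −1.30 (edgeR adjusted p = 0.0233 and adjusted p = 0.134). Of 12 genes of type I interferon signaling, 5 were higher in HF than in NP and 5 lower in HF+LP than in HF. Irf7, which amplifies type I interferon production, differed by 1.88 in the first (edgeR adjusted p = 0.0397), and Usp18, which limits receptor signaling, by 1.47 (adjusted p = 0.0628).

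Of 13 tested genes of interferon gamma signaling, the classical inducer of Gbp and Irg genes, 1 was higher in HF than in NP, the phosphatase Ptpn6 (0.96, edgeR adjusted p = 0.175). Nlrc5, which drives MHC class I genes, was lower in HF+LP than in HF at an unadjusted p under 0.05 (−0.90, edgeR adjusted p = 0.536). The medians of this list were 0.23 and −0.18. Of 7 tested inflammasome genes, Casp1, the protease that matures interleukin-1 beta, was higher in HF than in NP (0.45, edgeR adjusted p = 0.302), and 0 were lower in HF+LP than in HF. Of 11 genes of the autophagy conjugation machinery, 0 passed in either of these comparisons, with medians of 0.14 and 0.0092. None of the genes in these lists was called in either comparison with edgeR.

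**Figure D4:**
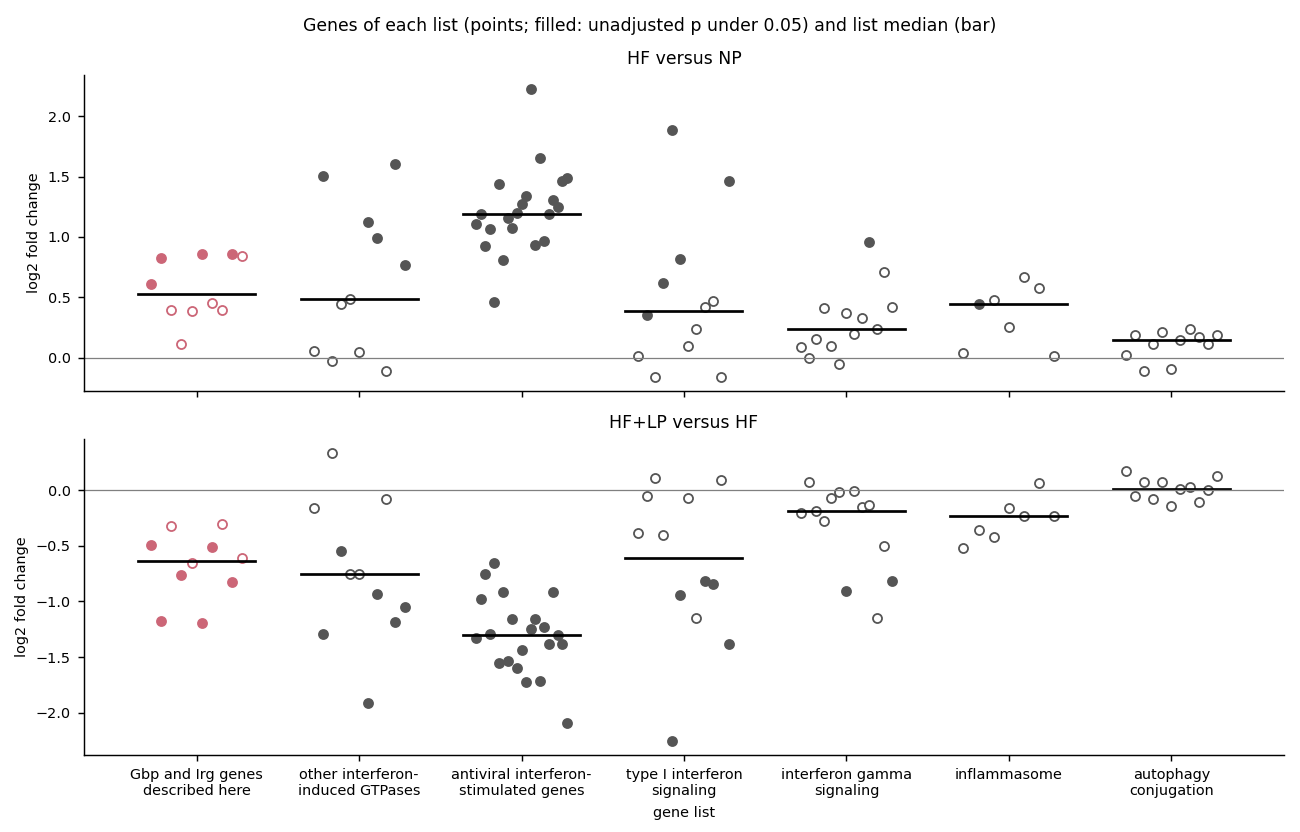
Log2 fold change (vertical axis) of each tested gene in 7 lists, for HF versus NP above and HF+LP versus HF below, filled at an unadjusted p under 0.05, with the list median as a bar. The antiviral list has the medians farthest from 0 (1.19 and −1.30), the Gbp and Irg genes (red) have medians of 0.53 and −0.63, and the autophagy genes lie near 0.

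Gbp4 had its highest value outside the high-fat groups. Its normalized count was 228 in LP mouse 20, 149 in LP mouse 2, 104 in mouse 5, 133 in mouse 13, and 108 in mouse 15. LP mouse 20 was the highest of the 20 mice for Gbp4, ahead of HF mouse 5 with 213. In the same library Gbp8, whose span overlaps Gbp4 on the same strand, had 229 normalized counts against 1.04 to 16.2 in the other 19 mice, and Gbp9 had 63.1 against 38.2 to 137. LP mouse 20 is the library with T and NK cell markers, in which Cd8a, a co-receptor of T cells, had 1185 normalized counts against 0 to 9.46 in the other 19 mice, Cd4 had 580 against 2.08 to 17.9, and Cd3e, a subunit of the T cell receptor complex, 256 against 1.07 to 8.18. Without this mouse, the LP and NP difference of Gbp4 went from 0.27 to 0.037, and the HF+LP and LP difference went from −0.19 to 0.030. The part of these cells in the Gbp4 value was not tested. LP mice enter HF versus NP and HF+LP versus HF only through the shared spread and scaling, and with LP mouse 20, LP mouse 13, or both left out of the fit, settings chosen after seeing the data, the counts at an unadjusted p under 0.05 were 4 members higher and 6 lower.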

How the data were processed

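Left ventricular RNA of 20 mice was sequenced as QuantSeq 3′ libraries, and the authors deposited raw read counts per Ensembl gene. Alignment used BlueBee software and the build was GRCm38 per the labels, whose processing notes name DESeq2 1.22.2; the annotation and the counting program are not given in the sources used here. Symbols were matched for 15917 of 15956 genes, and coordinates come from GENCODE M21.

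Low counts were removed by filterByExpr (edgeR 4.0.16, R 4.3.3; 13991 genes stayed), TMM factors were set, and 1 quasi-likelihood model of diet was fitted to the 20 libraries. Benjamini-Hochberg adjustment covered every gene tested. Standard errors came from the F statistic. Named genes were all members, up to 4 genes a list with the smallest p in HF versus NP and in HF+LP versus HF, and the 5 most like the members (log2 CPM, prior count 2). Gbp8, Gbp9, Cd8a, Cd4, Cd3e, Col3a1, Col1a1, Pecam1, Gzma, Alas2, Myh6, Ryr2, and Tnnt2 were chosen after their values were seen. Members and lists were chosen with earlier results of these data known. DESeq2 1.42.0, RLE factors, other filters and thresholds, covariates, and left-out mice were tried. The test was checked on simulated counts. Same-numbered mice are different animals. Results for 1 listed gene are not reported here.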

Additional observations from a re-analysis of the deposited data

Results flagged for a closer look

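In 44 groups of 5 mice examined, covering the members by diet and their sums, 2 held a mouse farther from the rest than Dixon's limit of 0.71 of the group's range, where chance gives about 1 group in 20. Gbp7 in HF mouse 2 had a normalized count of 1307, with a gap of 0.759 of the range to the next mouse. Irgm2 in NP mouse 8 had 192, with a gap of 0.734 of the range.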

How the results depend on the processing

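No member was called with edgeR at an adjusted p under 0.01. At an adjusted p under 0.05, and with DESeq2, 1 member (Irgm1) was called in HF versus NP, among 157 and 158 genes called in all. In HF+LP versus HF the sign held for all members under every alternative, and 5 to 7 were lower at an unadjusted p under 0.05. The size of Gbp7, Irgm2, Gbp4, and Iigp1 moved by over 1.5 times without single mice in HF+LP versus HF and in HF versus NP. In HF versus NP, members higher by that rule numbered 2 with the replicate block and 2 to 8 with a mouse left out, and Gbp5 ran from −0.12 to 0.25 with a mouse left out. Same-numbered mice are different animals and did not deviate together, so the block shares only a number. Correlations ran from −0.48 to 0.13 for NP and HF, and from −0.55 to 0.48 for HF and HF+LP. The numbers of NP mice 6 and 8 and LP mice 13, 15, and 20 occur once, so the block takes these mice out of the differences. HF+LP versus LP then rests on LP mice 2 and 5, and LP mouse 5 was among the lowest 5 for 10 of 10 members. Over all genes, HF versus NP gave 37 calls, from 2 with the replicate block to 158 with DESeq2, HF+LP versus HF 0 and 16 with DESeq2, HF+LP versus LP 14, from 0 with the block to 81 with DESeq2, and HF+LP versus NP 4, from 1 to 30.

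The comparisons in which members lay near 0 changed sign in places. In LP versus NP the library-name number as a covariate gave 0.013 for Igtp and 0.054 for Iigp1, and leaving out LP mice 13 and 20, chosen after seeing the data, gave −0.24 for Gbp2, −0.0035 for Gbp4, and −0.35 for Irgm2. With a mouse left out, Gbp2 ran from −0.13 to 0.16, Gbp5 from −0.26 to 0.014, Irgm1 from −0.13 to 0.080, Irgm2 from −0.14 to 0.39, and Iigp1 from −0.21 to 0.041, and 0 to 1 members were lower at an unadjusted p under 0.05 (1 without NP mouse 4). In HF+LP versus LP the covariate gave −0.024 for Igtp, the replicate block gave 2 members higher, 0.26 for Gbp4, and 0.17 for Gbp5, and leaving out LP mice 13 and 20 gave 0.071 for Gbp4. With a mouse left out, Gbp2 ran from −0.050 to 0.24, Gbp4 from −0.29 to 0.030, Gbp7 from −0.011 to 0.34, Irgm1 from −0.044 to 0.16, Irgm2 from −0.010 to 0.43, and Igtp from −0.039 to 0.15, and 0 to 1 members were lower (1 without LP mouse 2, LP mouse 5, or HF+LP mouse 2). In HF+LP versus NP the replicate block gave −0.047 for Irgm1 and 0.026 for Igtp. With a mouse left out, Gbp4 ran from −0.012 to 0.22, Gbp7 from −0.48 to 0.11, Irgm1 from −0.087 to 0.15, Igtp from −0.18 to 0.022, Iigp1 from −0.078 to 0.18, and Gm4951 from −0.52 to 0.077, and 0 to 1 members were lower (0 without NP mouse 5, NP mouse 8, or HF+LP mouse 4). For the interaction, 1 to 4 members were lower with a mouse left out (4 without NP mouse 5, 3 without LP mouse 5 or HF mouse 1, 2 without NP mouse 8), and Gbp7 ran from −0.62 to 0.088. The median of the members ran from −0.28 to 0.028 in LP versus NP, from 0.026 to 0.53 in HF+LP versus LP, from −0.13 to 0.13 in HF+LP versus NP, and from −0.70 to −0.31 for the interaction. The causes were not tested.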
